A study of Mus musculus with 60 samples.

Results

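The genes described here are 10 Kruppel-like factor genes, Klf2, Klf3, Klf4, Klf5, Klf6, Klf9, Klf10, Klf11, Klf13 and Klf15. They were taken as the rows of the deposited count table with these gene names, which found 10 of 10, out of 55357 genes in the table. PolyA RNA was sequenced from intestinal epithelial cells of mice aged 8 weeks that carry an Lgr5-2A-eGFP allele, in which green fluorescent protein (GFP) is made along with Lgr5, the R-spondin receptor of crypt base stem cells. By reporter level the cells were sorted as GFP-high, GFP-intermediate or GFP-negative, from 5 gut parts, proximal, middle and distal small intestine, proximal colon and distal colon. All 15 groups carry the reporter allele, none is labelled with a treatment, and each has 4 libraries, 60 in all. The sort yielded 30000 cells or more for each fraction of the colon and 50000 or more for each of the small intestine, and no sorting marker other than GFP is named. The labels do not say that the libraries of a group came from separate animals. The p-values thus measure only the spread between these libraries, part of which may be technical.

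Kruppel-like factors are transcription factors with a zinc finger region at the end of the protein that binds GC-rich and CACCC-type DNA. Klf2, Klf4, Klf5 and Klf6 can activate transcription, Klf3 represses it through CtBP corepressors, and Klf9, Klf10, Klf11 and Klf13 recruit the Sin3a corepressor. In the mouse gut, Klf5 is known for the dividing crypt cells, whereas Klf4 is known for cells that have left the cell cycle towards the surface and for goblet cell differentiation.

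Library totals ran from 55411864 to 113917959 counts, with a median of 81230235. Lgr5 separated the fractions as labelled, with log2 differences of GFP-high over GFP-negative cells between 4.44 in the proximal colon and 7.46 in the distal small intestine. By the mean correlation of log2 CPM over the 8000 most abundant genes, 52 of 60 libraries were closest to their own group. The other 8 were 4 of the proximal colon and 4 of the small intestine. In the proximal colon GFP-negative replicate 4 was closest to the GFP-high group, and GFP-high replicates 2 and 4 and GFP-negative replicate 2 to the GFP-intermediate group. In the small intestine GFP-intermediate replicates 1 (proximal) and 4 (middle) were closest to the GFP-high group of the proximal part, and proximal GFP-negative replicates 2 and 4 to the GFP-negative group of the middle part. Each was left out in turn, and the calls that this ends or adds are given with the results. The summed level of 6 epithelial markers was 5101 CPM or more in all 60 libraries. Leukocyte markers summed to at most 61.1 CPM in the GFP-high and GFP-intermediate libraries and to between 90.7 and 1404 CPM in the GFP-negative libraries. The 15 libraries numbered 1 stand apart: Xist, the RNA of the inactive X chromosome, was at 156 CPM or more in them and at 2.02 CPM or less in the other 45. Among them, Y-linked Ddx3y had no count in the 9 small intestinal libraries and was at 41.1 CPM or more in the 6 colon libraries. In the other 45 libraries Ddx3y was at 41.1 CPM or more. In each group the library numbered 1 thus differed from the others in sex-linked RNA, which the labels do not explain. Each comparison was repeated without the libraries numbered 1, and the calls of members that this ends are named with their results. Of 8 stem cell markers 8, 8, 8, 8 and 6 were higher in GFP-high cells against GFP-negative cells from the proximal small intestine to the distal colon, with median log2 differences of 3.28, 3.23, 3.69, 2.56 and 2.00. Of 16 cell cycle genes 14, 13, 14, 12 and 11 were higher and 1, 1, 1, 1 and 1 lower, with medians of 1.03, 1.12, 1.67, 1.00 and 1.03. Of 8 enterocyte markers 8, 8, 8, 4 and 2 were lower and 0, 0, 0, 0 and 1 higher, with medians of -3.61, -3.19, -3.66, -1.50 and -0.82.

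Promoter windows show which DNA lies at the start of genes that moved together in these data; 8 of the 10 genes have a window in RefSeq (GRCm38.p6), of 250 bases before and 50 after the annotated start. Klf5 and Klf10 are named here without a window. The first 3 windows printed belong to the genes that were lower in GFP-high cells of every gut part, Klf4 (chr4:55532426-55532725, minus strand), Klf6 (chr13:5861239-5861538, plus strand) and Klf2 (chr8:72318812-72319111, plus strand), and the fourth to Klf11 (chr12:24651121-24651420, plus strand), which was higher in GFP-high cells of the small intestine. Capitals mark GC boxes (GGGCGG) and CACCC boxes, the letters that proteins of this family bind, on either strand.
Klf4: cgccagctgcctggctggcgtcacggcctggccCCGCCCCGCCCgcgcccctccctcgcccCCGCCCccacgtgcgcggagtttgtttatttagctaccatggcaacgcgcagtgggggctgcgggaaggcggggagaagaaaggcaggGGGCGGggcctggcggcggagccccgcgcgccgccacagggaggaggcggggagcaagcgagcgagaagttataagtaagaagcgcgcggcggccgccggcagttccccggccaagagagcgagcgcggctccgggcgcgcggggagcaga
Klf6: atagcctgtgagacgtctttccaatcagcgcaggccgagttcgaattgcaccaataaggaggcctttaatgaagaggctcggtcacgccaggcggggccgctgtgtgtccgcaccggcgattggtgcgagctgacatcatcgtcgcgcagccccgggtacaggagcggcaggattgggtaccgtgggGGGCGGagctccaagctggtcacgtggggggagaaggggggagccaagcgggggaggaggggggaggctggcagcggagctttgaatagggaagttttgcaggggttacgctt
Klf2: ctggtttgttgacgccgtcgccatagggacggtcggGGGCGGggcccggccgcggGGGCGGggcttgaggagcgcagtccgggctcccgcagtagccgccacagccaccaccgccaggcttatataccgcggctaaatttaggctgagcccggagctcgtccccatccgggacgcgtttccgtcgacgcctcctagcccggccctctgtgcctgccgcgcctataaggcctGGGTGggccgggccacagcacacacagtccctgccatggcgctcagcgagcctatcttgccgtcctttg
Klf11: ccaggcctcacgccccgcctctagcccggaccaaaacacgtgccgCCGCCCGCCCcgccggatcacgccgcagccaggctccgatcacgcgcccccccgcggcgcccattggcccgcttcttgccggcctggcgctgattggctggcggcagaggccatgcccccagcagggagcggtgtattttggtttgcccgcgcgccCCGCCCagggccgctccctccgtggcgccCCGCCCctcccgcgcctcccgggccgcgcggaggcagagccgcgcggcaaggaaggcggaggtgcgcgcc
In the window of Klf15 (chr6:90462326-90462625, plus strand), which was higher in GFP-high cells of the proximal and distal small intestine, capitals mark CACGTG, the E-box that circadian and Myc-type factors bind.
Klf15: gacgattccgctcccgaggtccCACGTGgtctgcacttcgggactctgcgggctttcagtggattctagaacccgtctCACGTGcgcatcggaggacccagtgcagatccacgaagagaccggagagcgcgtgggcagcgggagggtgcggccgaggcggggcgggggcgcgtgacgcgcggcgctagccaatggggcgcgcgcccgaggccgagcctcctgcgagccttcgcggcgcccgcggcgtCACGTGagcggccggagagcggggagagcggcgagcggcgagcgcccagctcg

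Matches were counted on both strands, overlapping ones each, and GC boxes and CACCC separately where they overlap. The 8 windows were 63.0% (Klf6) to 77.7% (Klf11) G and C. The shares over all windows were not matched for this, so they do not show an excess particular to these genes. A GC box was found in 7 of the 8 windows and in 35.7% of all 32851 RefSeq windows. The counts were 6 in Klf3, 4 each in Klf4 and Klf11, 3 in Klf13, 2 in Klf2 and 1 each in Klf6 and Klf15, with none in Klf9. CACCC was in 5 of 8, against 57.5% of all windows, and CACGTG in 4 of 8 (Klf4, Klf6, Klf11 and Klf15, the last with 3), against 7.15%. The CArG box of serum response factor was in 0 of 8, against 1.63%, and a MEF2 site was in 1 of 8, that of Klf2, against 3.19%. GC boxes and CACGTG thus occurred together in windows of some genes lower (Klf4, Klf6) and some genes higher (Klf11, Klf15) in GFP-high cells. The window of Klf9, also higher in GFP-high cells of the small intestine, had neither, and that of Klf2 had no CACGTG.

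Per transcript length, Klf5 was the most abundant of the 10 genes and Klf15 the least. Averaged over the 60 libraries, the authors' log2 RPKM (read counts scaled to transcript length and library size) was 6.72 for Klf5, 5.41 for Klf4, 4.53 for Klf6, 4.36 for Klf3, 3.74 for Klf13, 3.65 for Klf9 and 3.38 for Klf10. Klf11 averaged 1.58, Klf2 -0.17 and Klf15 -0.66 log2 RPKM. Klf5 ranked first of the 10 in 54 libraries and Klf4 in the other 6. Klf2 spanned the widest range between group means, 31.4-fold on the CPM scale, followed by Klf4 with 12.6-fold, whereas Klf13 spanned 1.47-fold and Klf5 1.78-fold. Counts per library were at least 253 for every gene except Klf2, which went down to 6, and Klf15, which went down to 0, and so these have the least precise values.

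In the order of the 15 group means, most neighbouring groups stood within the spread of their libraries. Of the 14 steps in that order, 5 were larger than the larger SD of the 2 groups for Klf4, 2 each for Klf2, Klf6, Klf9 and Klf15, 1 each for Klf5 and Klf11, and 0 for Klf3, Klf10 and Klf13. The highest and lowest Klf4 means were 489 ± 129 CPM in distal colon GFP-negative and 38.7 ± 7.22 CPM in proximal small intestine GFP-high cells (SD, n = 4 here and in the following). Klf4 was next at 342 ± 104 CPM in GFP-negative cells of the proximal colon and at 322 ± 39.99 CPM in GFP-intermediate cells of the distal colon, which lay within 1 SD of each other. Klf5 spanned 708 ± 23.8 CPM in distal colon GFP-negative and 397 ± 17.3 CPM in proximal small intestine GFP-high cells. Klf6 spanned 218 ± 45.5 CPM in distal small intestine GFP-negative and 51.8 ± 5.77 CPM in proximal small intestine GFP-high cells. Klf9 spanned 113 ± 14.9 CPM in distal colon GFP-negative and 35.9 ± 6.73 CPM in proximal small intestine GFP-negative cells, and Klf2 9.52 ± 3.36 CPM in distal colon GFP-negative and 0.303 ± 0.212 CPM in middle small intestine GFP-high cells. Distal colon GFP-negative cells thus held the highest mean of Klf2, Klf4, Klf5 and Klf9, as they did for Klf3 (335 ± 57.2 CPM) and Klf10 (71.5 ± 21.3 CPM). Klf11 spanned 21.8 ± 1.26 CPM in proximal colon GFP-intermediate and 5.48 ± 1.56 CPM in distal small intestine GFP-negative cells. Klf13 spanned 121 ± 6.47 CPM in proximal colon GFP-intermediate and 82.4 ± 13.2 CPM in proximal small intestine GFP-negative cells, and Klf15 3.14 ± 1.31 CPM in distal colon GFP-high and 0.406 ± 0.425 CPM in distal small intestine GFP-negative cells.

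**Figure D1:**
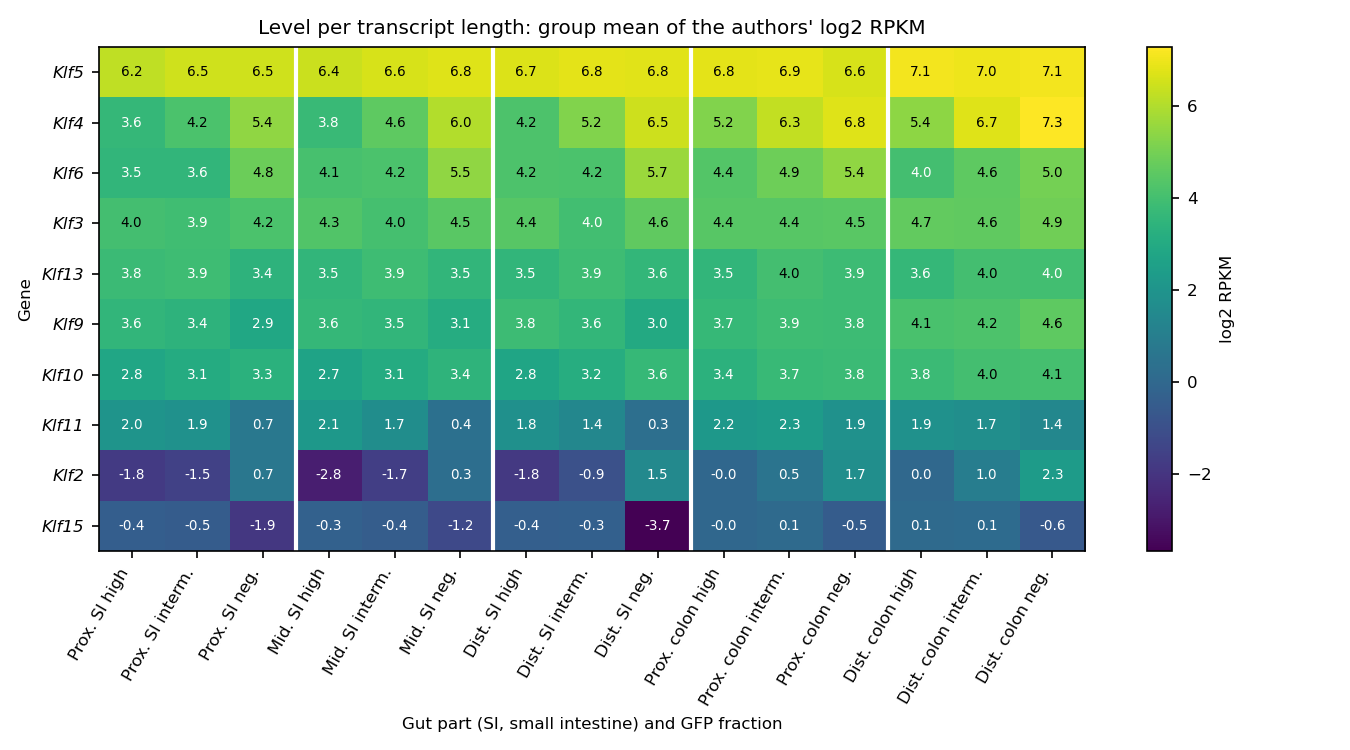
Level per transcript length of the 10 genes (rows, most abundant at the top) in the 15 groups (columns), as the mean of the authors' log2 RPKM over 4 libraries; the number in each cell is that mean, and SI stands for small intestine. Klf5 is high in every column, whereas Klf4 runs from 3.62 in GFP-high cells of the proximal small intestine to 7.29 in the GFP-negative cells of the distal colon.

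**Figure D2:**
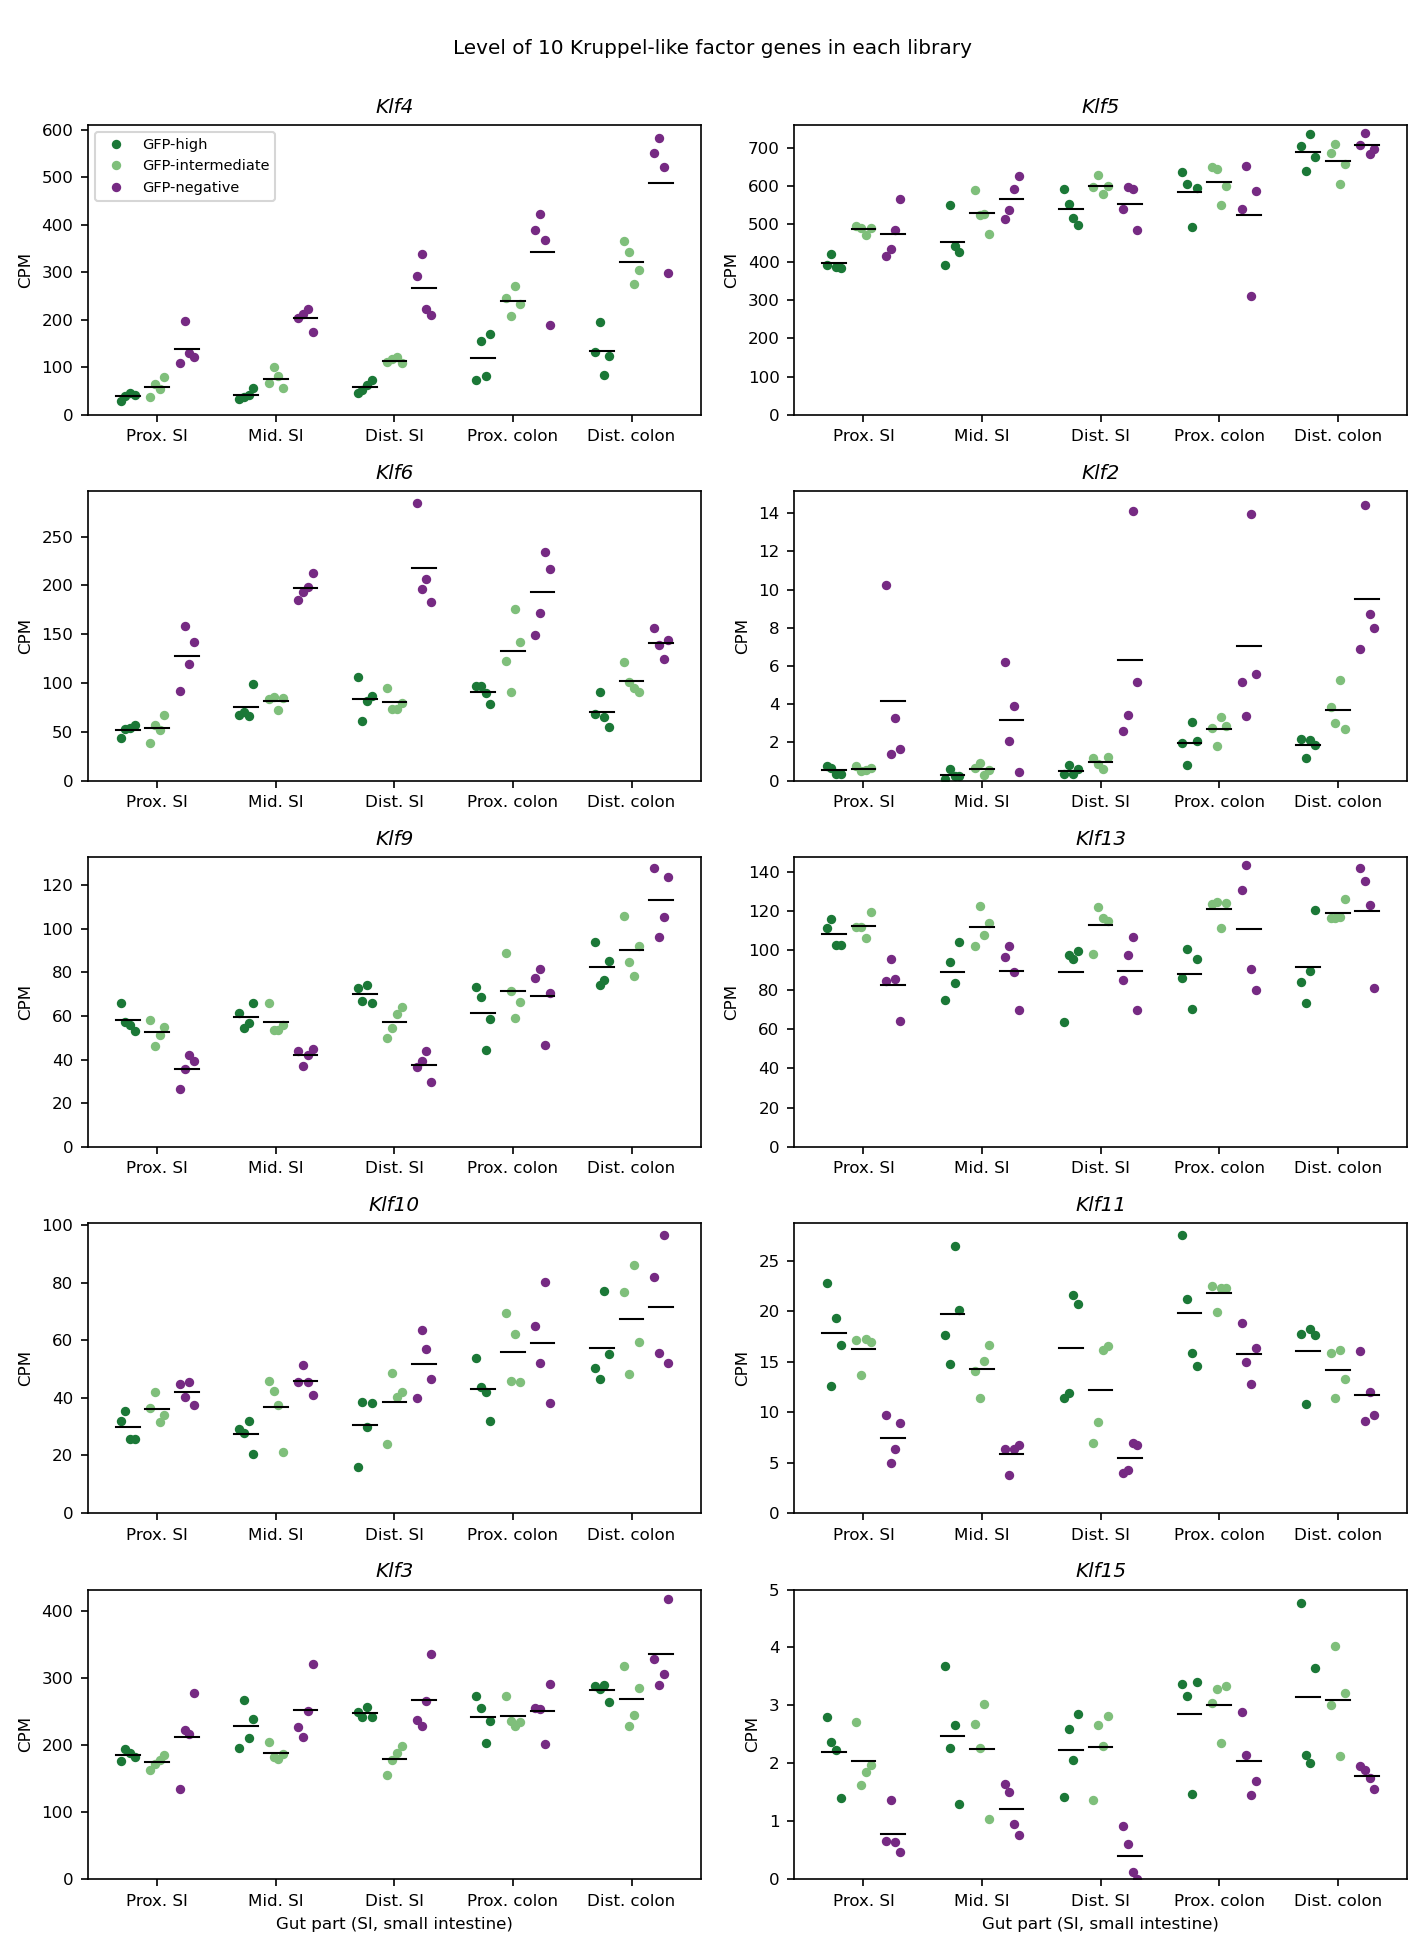
Level in CPM (linear axis from 0, own scale per gene) in each of the 60 libraries, by gut part; points are libraries in replicate order and black lines are group means. Klf4, Klf6 and Klf2 are lower in GFP-high cells than in GFP-negative cells of every part, whereas Klf9 and Klf11 are higher in GFP-high cells of the small intestine.

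The comparison of GFP-high with GFP-negative cells asks which of these genes differ between the stem cell fraction and the cells without the reporter. Klf4, Klf6 and Klf2 were lower in GFP-high cells of all 5 parts, by log2 differences between -1.01 (Klf6, distal colon) and -3.60 (Klf2, distal small intestine). Klf11 and Klf9 were higher in GFP-high cells of the 3 small intestinal parts, by 0.51 (Klf9, middle part) to 1.77 (Klf11, middle part). In the proximal small intestine 7 of 10 genes were called, at an adjusted p below 0.05, 4 higher and 3 lower; of all 23360 genes tested, 47.1% were called (22.5% higher, 24.6% lower). In the middle small intestine the count was 7, 2 higher and 5 lower, against 48.3% of all genes (22.7% and 25.6%). The distal small intestine had 7, 3 higher and 4 lower, against 52% (25.7% and 26.2%). With so many genes called, these counts stand only a little above the background. In the colon no member was higher: 3 were lower in the proximal part, against 25.3% of all genes called (11.3% higher, 14% lower), and 4 were lower in the distal part, against 25.1% (11.2% higher, 13.9% lower). The numbers called in the colon, too, stand only a little above the background. With so few of all genes called higher there, 0 of 10 is not read as a result about the members. The median log2 difference of the 10 genes was -0.23, -0.24, -0.07, -0.25 and -0.36 from the proximal small intestine to the distal colon, against 0, -0.04, -0.01, -0.04 and -0.03 over all genes tested. RNA of sorted cells in bulk cannot tell fewer cells of a type from less RNA per cell.

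**Figure D3:**
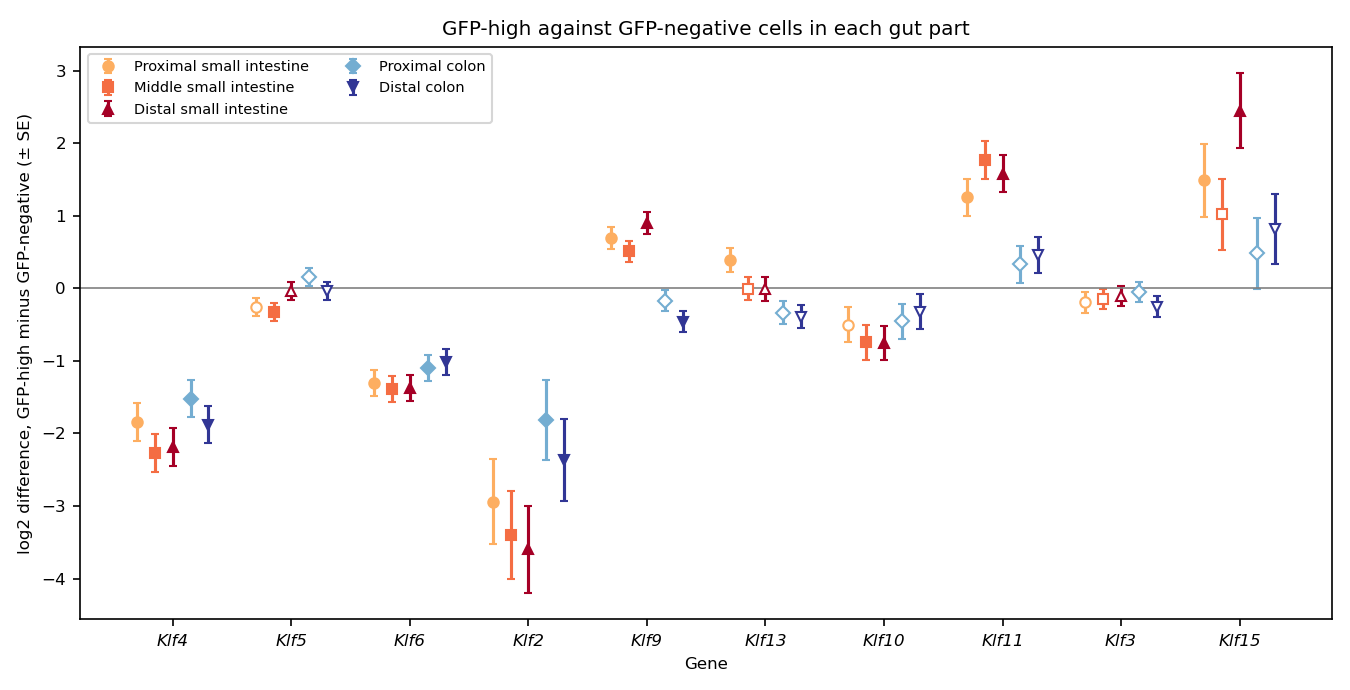
Log2 difference of GFP-high over GFP-negative cells (vertical axis, ± SE) for each gene and gut part; filled symbols have an adjusted p below 0.05 and open symbols do not. Klf4, Klf6 and Klf2 lie below 0 in all 5 parts, and the small intestinal values of Klf9, Klf11 and Klf15 lie above the colon values.

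Klf4, which restrains division and turns on the cell cycle inhibitor gene Cdkn1a in differentiating epithelium, was lower in GFP-high cells throughout. In the proximal small intestine it stood at 28.5, 39.1, 45.2 and 41.9 CPM in GFP-high libraries, against 108, 197, 129 and 121 CPM in GFP-negative ones. The middle small intestine gave 32.8, 37.99, 41.7 and 56.2 CPM in GFP-high libraries, against 202, 212, 223 and 175 CPM in GFP-negative ones. In the distal small intestine the values were 45.8, 51.4, 62.5 and 73.7 CPM in GFP-high libraries, against 292, 339, 223 and 209.7 CPM in GFP-negative ones. In each small intestinal part every GFP-high library lay below every GFP-negative one. In the proximal colon Klf4 was at 72.3, 155, 81.5 and 169 CPM in GFP-high libraries, against 389, 423, 367 and 189.5 CPM in GFP-negative ones. The distal colon had 131, 195, 82.3 and 124 CPM in GFP-high libraries, against 552, 582, 521 and 299 CPM in GFP-negative ones. The colon fractions did not overlap either, but GFP-negative replicate 4 of the proximal colon lay close to the GFP-high libraries. The log2 differences were -1.84 ± 0.26 (adjusted p = 3.72e-08) in the proximal, -2.27 ± 0.26 (adjusted p = 2.75e-10) in the middle and -2.19 ± 0.26 (adjusted p = 5.56e-10) in the distal small intestine. They were -1.52 ± 0.26 (adjusted p = 8.52e-06) in the proximal and -1.88 ± 0.26 (adjusted p = 2.75e-07) in the distal colon. Cdkn1a was called lower in GFP-high cells of all 5 parts, with log2 differences of -2.79, -3.25, -3.38, -1.53 and -2.01 from the proximal small intestine to the distal colon. It was picked by its p-values in these comparisons from the glucocorticoid response genes, among which it is counted again below. Its relation to the Klf4 difference was not tested. Of 8 goblet cell markers, 8, 7, 8, 4 and 4 were lower and none higher in GFP-high cells in the same order of parts, with list medians of -3.37, -3.64, -3.18, -1.03 and -1.61. Of 8 surface colonocyte markers 5, 5, 5, 4 and 3 were lower and 1, 1, 1, 0 and 0 higher, with medians of -2.52, -2.68, -2.22, -1.09 and -1.08. Their part in the Klf4 difference was not tested.

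Klf4 was graded over the 3 fractions. GFP-intermediate cells held 36.97, 65.00, 53.5 and 79.7 CPM in the proximal, 66.5, 99.7, 80.5 and 56.5 CPM in the middle and 110.3, 116, 121 and 108 CPM in the distal small intestine. In the colon they held 246, 207, 271 and 233 CPM in the proximal and 365, 343, 276 and 305 CPM in the distal part. Over the small intestine (12 libraries a fraction) the log2 difference of GFP-high over GFP-intermediate cells was -0.80 ± 0.15 (adjusted p = 4.28e-05) and that of GFP-intermediate over GFP-negative cells -1.29 ± 0.15 (adjusted p = 5.41e-11). Over the colon (8 libraries a fraction) the steps were -1.14 ± 0.18 (adjusted p = 0.000121) and -0.56 ± 0.18 (adjusted p = 0.0158). The step next to GFP-high was thus the larger one in the colon and the smaller one in the small intestine, a difference that was not tested. The first colon step was not called without all libraries numbered 3 (-0.96, adjusted p = 0.0767), and the second was not called without all libraries numbered 1, 2 or 3 (-0.51 to -0.44, adjusted p from 0.0703 to 0.151). Within every part the group means ran in the order of fraction.

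Klf5, which promotes the growth of crypt cells, changed little with the reporter. Its level was 385 to 594 CPM in GFP-high, 471 to 630.1 CPM in GFP-intermediate and 416 to 626 CPM in GFP-negative libraries of the small intestine. In the colon it was 494 to 737 CPM in GFP-high, 551 to 713 CPM in GFP-intermediate and 311 to 740.0 CPM in GFP-negative libraries, the last range starting at proximal colon replicate 3. It was lower in GFP-high cells of the middle small intestine, with a log2 difference of -0.32 ± 0.12 (adjusted p = 0.0237). The call was lost without GFP-high replicates 1, 3 or 4, GFP-negative replicates 3 or 4 or all libraries numbered 1, 3 or 4 (-0.31 to -0.25, adjusted p from 0.0517 to 0.179). It was also lost with only its 2 groups in the fit (-0.29, adjusted p = 0.0696). In the proximal small intestine the difference was -0.26 ± 0.12 (adjusted p = 0.075), which was called without GFP-negative replicate 1 (-0.32, adjusted p = 0.0401) and with DESeq2 size factors (-0.37, adjusted p = 0.00808). In the other 3 parts the 95% intervals of the difference were -0.27 to 0.20 (distal small intestine), -0.08 to 0.40 (proximal colon) and -0.27 to 0.20 (distal colon).

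The ratio of Klf5 to Klf4 followed the fraction. Log2 RPKM of Klf5 minus that of Klf4 was 2.61 ± 0.30 in GFP-high, 2.33 ± 0.48 in GFP-intermediate and 1.04 ± 0.46 in GFP-negative cells of the proximal small intestine (SD, n = 4). In the distal small intestine these were 2.46 ± 0.41, 1.63 ± 0.09 and 0.31 ± 0.28 in the same order of fractions. In the distal colon they were 1.67 ± 0.59, 0.28 ± 0.10 and -0.19 ± 0.43. Klf5 transcripts thus outnumbered those of Klf4 most in GFP-high cells of the small intestine, and the 2 stood at about the same level per length in GFP-negative cells of the colon, where the SD spans 0 in the proximal (-0.15 ± 0.77) and the distal part.

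**Figure D4:**
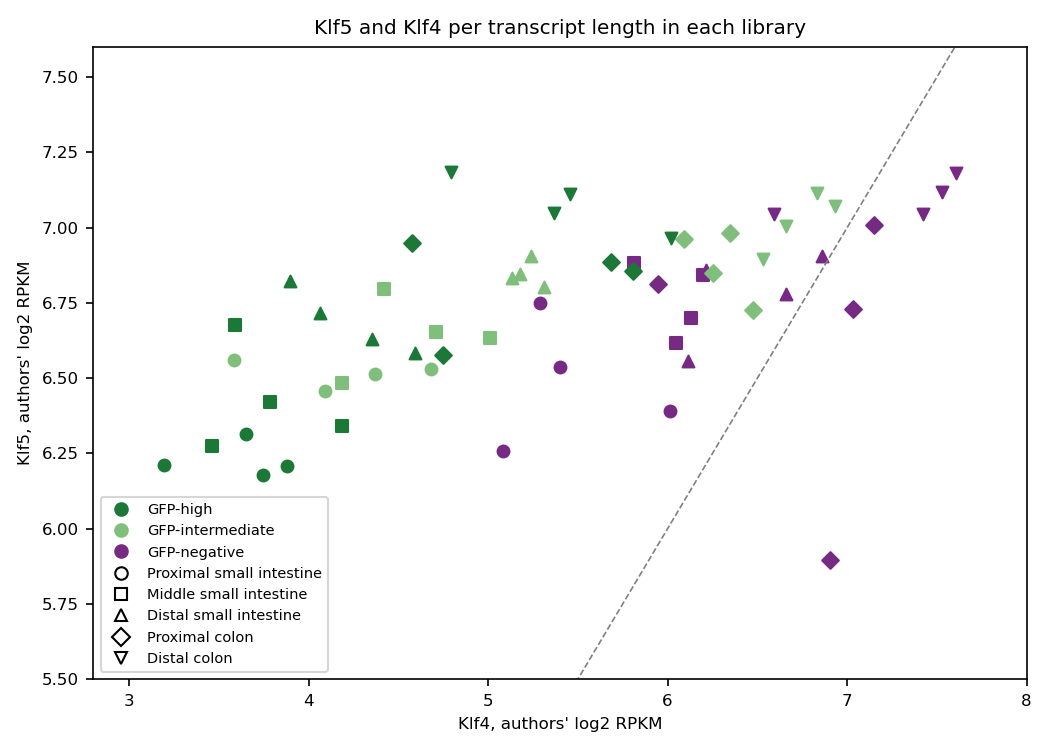
Klf5 (vertical axis) against Klf4 (horizontal axis) in each of the 60 libraries, both in the authors' log2 RPKM; colours are GFP fractions, symbols are gut parts, and the dashed line marks equal levels. Klf4 spreads from 3.20 to 7.61 while Klf5 stays between 5.90 and 7.18; the 6 libraries below the line are GFP-negative.

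Klf6, a widely expressed factor that is induced quickly by injury and growth stimuli, was lower in GFP-high cells of all 5 parts. In the proximal small intestine its level was 43.5, 52.8, 54.2 and 56.7 CPM in GFP-high libraries, against 91.6, 159, 119 and 142 CPM in GFP-negative ones. The middle small intestine had 66.9, 70.3, 66.7 and 98.9 CPM in GFP-high libraries, against 185, 193, 198 and 212 CPM in GFP-negative ones. In the distal small intestine it was 106, 61.1, 81.3 and 86.9 CPM in GFP-high libraries, against 284, 197, 207 and 183 CPM in GFP-negative ones. Every GFP-high library of these 3 parts lay below every GFP-negative one. Klf6 in the proximal colon was 96.8, 96.5, 90.1 and 78.3 CPM in GFP-high libraries, against 149, 171, 234 and 217 CPM in GFP-negative ones. In the distal colon the values were 68.6, 91.2, 65.3 and 54.8 CPM in GFP-high libraries, against 156, 139, 125 and 144 CPM in GFP-negative ones, again without overlap. The log2 differences were -1.30 ± 0.18 (adjusted p = 2.49e-08) in the proximal, -1.38 ± 0.18 (adjusted p = 5.91e-09) in the middle and -1.38 ± 0.18 (adjusted p = 5.38e-09) in the distal small intestine. In the proximal colon the difference was -1.09 ± 0.18 (adjusted p = 5.05e-06); that of the distal colon was -1.01 ± 0.18 (adjusted p = 2.36e-05). Over the small intestine Klf6 differed by -0.03 ± 0.10 (adjusted p = 0.908) between GFP-high and GFP-intermediate cells, with a 95% interval of -0.23 to 0.17, and by -1.32 ± 0.10 (adjusted p = 4.16e-16) between GFP-intermediate and GFP-negative cells. Over the colon both steps were called, -0.55 ± 0.13 (adjusted p = 0.00481) and -0.50 ± 0.13 (adjusted p = 0.00174); the first was not called without all libraries numbered 1 or 3 (-0.51 to -0.44, adjusted p from 0.0581 to 0.207). Of 21 immediate early and dissociation genes, 7, 10, 13, 6 and 6 were lower and 3, 3, 2, 0 and 0 higher in GFP-high cells from the proximal small intestine to the distal colon, with list medians of -0.45, -1.19, -1.66, -0.45 and -0.93. Junb, an AP-1 subunit picked from that list by its p-values in these comparisons, had log2 differences of -1.56, -2.47, -2.67, -1.59 and -1.63, each called. Its call in the proximal colon was lost without GFP-negative replicate 3 (-1.15, adjusted p = 0.0726) and without the libraries numbered 1 or 3 (-1.26, adjusted p = 0.108 and -1.35, adjusted p = 0.132). Its call in the distal colon was lost without those numbered 1 or 3 (-1.38, adjusted p = 0.0772 and -1.41, adjusted p = 0.102). Their part in the Klf6 difference was not tested.

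Klf2, known from quiescent T cells and from endothelium under flow, was low and was lower in GFP-high cells of all 5 parts. It stood at 0.771, 0.671, 0.364 and 0.357 CPM in GFP-high libraries, against 10.3, 1.39, 3.27 and 1.67 CPM in GFP-negative ones in the proximal small intestine. In the middle small intestine it was 0.0851, 0.594, 0.269 and 0.265 CPM in GFP-high libraries, against 6.22, 2.09, 3.91 and 0.477 CPM in GFP-negative ones. The distal small intestine had 0.359, 0.804, 0.331 and 0.599 CPM in GFP-high libraries, against 2.61, 3.42, 14.1 and 5.19 CPM in GFP-negative ones. The GFP-negative libraries varied widely, and in the middle small intestine the lowest of them overlapped the GFP-high range. Levels in the proximal colon were 2.00, 0.826, 3.09 and 2.07 CPM in GFP-high libraries, against 5.18, 3.39, 13.98 and 5.56 CPM in GFP-negative ones. In the distal colon they were 2.18, 1.20, 2.15 and 1.85 CPM in GFP-high libraries, against 6.91, 14.4, 8.75 and 7.99 CPM in GFP-negative ones. The log2 differences were -2.94 ± 0.59 (adjusted p = 3.68e-05) in the proximal, -3.39 ± 0.61 (adjusted p = 5.12e-06) in the middle and -3.60 ± 0.60 (adjusted p = 1.31e-06) in the distal small intestine. For the proximal colon it was -1.82 ± 0.55 (adjusted p = 0.0114), and for the distal colon -2.37 ± 0.56 (adjusted p = 0.00124). In the proximal colon the call was lost without GFP-high replicate 2, GFP-negative replicate 3 or all libraries numbered 3 (-1.56 to -1.20, adjusted p from 0.0505 to 0.123). The size also rests on single libraries elsewhere: leaving out GFP-negative replicate 1 gave -1.97 in the proximal small intestine, and leaving out GFP-negative replicate 3 gave -2.83 in the distal small intestine. With all libraries of 1 number left out, it was -2.16 in the proximal (number 1), -2.52 and -4.07 in the middle (numbers 1 and 2) and -2.66 in the distal small intestine (number 3).

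Leukocyte markers moved with Klf2. The summed level of 10 leukocyte markers (among them Ptprc, Cd3e, Cd8a and Laptm5) was 16.6 to 25.8 CPM in GFP-high and 176 to 1404 CPM in GFP-negative libraries of the proximal small intestine. It was 18.7 to 38.2 against 179.9 to 727 CPM in the middle and 24.4 to 56.8 against 261 to 1136 CPM in the distal small intestine, in GFP-high and GFP-negative libraries. In the colon it was 7.10 to 13.6 against 120.0 to 959.9 CPM in the proximal and 3.02 to 7.05 against 90.7 to 326 CPM in the distal part. Of the 10 leukocyte markers, 9, 9, 8, 9 and 10 were lower in GFP-high cells of the 5 parts, and all 10 had counts in every group. The GFP-negative library with the most Klf2 in the proximal small intestine (replicate 1) and in the proximal colon (replicate 3) also had the highest leukocyte sum of its group, 1404 and 959.9 CPM. In the middle small intestine replicate 1 was likewise highest in both. In the distal small intestine and the distal colon the most Klf2 was in replicates 3 and 2, whereas the highest leukocyte sum was in replicate 4. Of 5 endothelial markers tested (Emcn was not), 2, 1, 3, 2 and 3 were lower; the sum of the 6 was at most 1.16 CPM in GFP-high and 2.72 to 20.3 CPM in GFP-negative libraries. Of 7 stromal markers, 1, 1, 1, 2 and 0 were lower, with sums of at most 3.62 CPM in GFP-high and at most 11.6 CPM in GFP-negative libraries. The part of these cell types in the Klf2 difference was not tested.

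**Figure D5:**
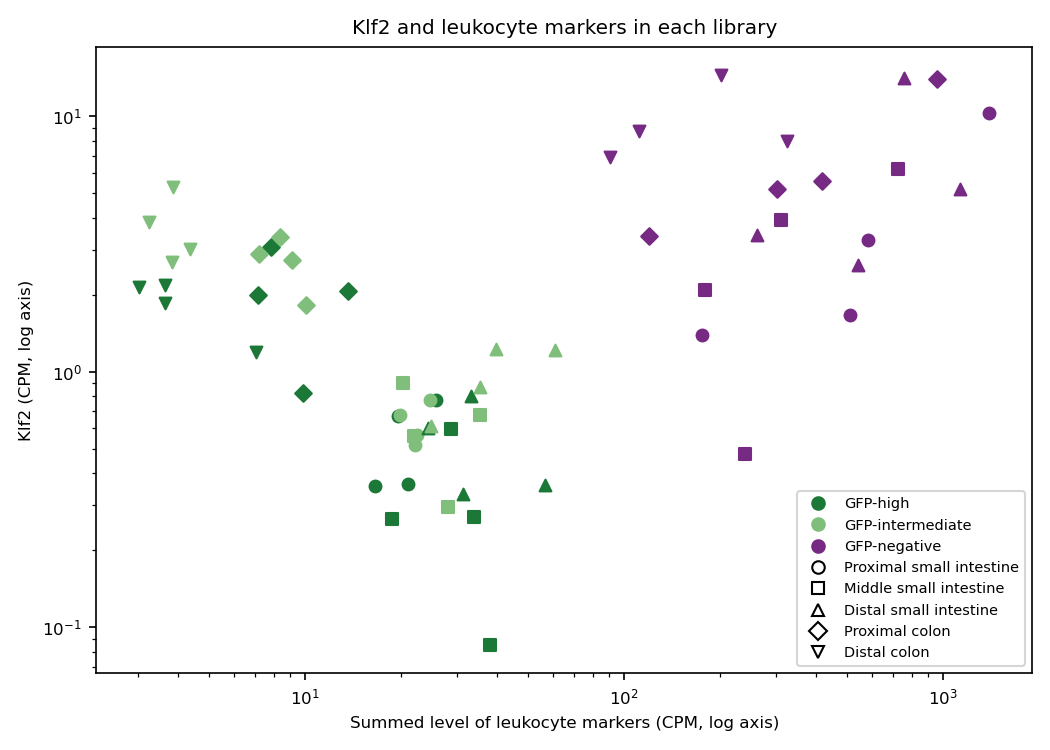
Klf2 level (vertical axis, CPM, log scale) against the summed level of 10 leukocyte markers (horizontal axis, CPM, log scale) in each of the 60 libraries; colours are GFP fractions and symbols are gut parts. All GFP-negative libraries lie to the right at 90.7 CPM of leukocyte markers or more, and GFP-high and GFP-intermediate colon libraries have more Klf2 than small intestinal ones of the same fraction, at lower marker sums.

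Among the 4 genes whose proteins recruit Sin3a, Klf11 and Klf9 were higher in GFP-high cells of the small intestine, Klf10 was lower in 2 of its parts, and Klf13 was called in 1 part. Klf11, a TGF-beta inducible early gene, stood at 22.8, 12.6, 19.3 and 16.7 CPM in GFP-high libraries, against 9.68, 4.96, 6.39 and 8.89 CPM in GFP-negative ones in the proximal small intestine. In the middle part it was 17.7, 14.8, 26.5 and 20.1 CPM in GFP-high libraries, against 6.38, 3.72, 6.39 and 6.71 CPM in GFP-negative ones. The distal part had 11.4, 11.9, 21.6 and 20.7 CPM in GFP-high libraries, against 4.01, 4.26, 6.93 and 6.73 CPM in GFP-negative ones. All GFP-high libraries of these parts lay above all GFP-negative ones. The differences were 1.25 ± 0.26 (adjusted p = 5.41e-05), 1.77 ± 0.26 (adjusted p = 1.11e-07) and 1.58 ± 0.26 (adjusted p = 9.27e-07). In the colon Klf11 was at 10.8 to 27.5 CPM in GFP-high and 9.17 to 18.9 CPM in GFP-negative libraries, and the differences of 0.33 ± 0.25 (adjusted p = 0.37) and 0.46 ± 0.25 (adjusted p = 0.187) were not called.

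Klf9, a target of glucocorticoid and thyroid hormone receptors, had 66.04, 57.2, 55.8 and 53.3 CPM in GFP-high libraries, against 26.6, 35.7, 42.1 and 39.2 CPM in GFP-negative ones in the proximal small intestine. Its level in the middle part was 61.5, 54.7, 56.7 and 65.9 CPM in GFP-high libraries, against 43.8, 36.9, 41.98 and 45.02 CPM in GFP-negative ones. In the distal part it was 72.9, 66.8, 74.3 and 65.7 CPM in GFP-high libraries, against 36.6, 39.4, 44.1 and 29.7 CPM in GFP-negative ones. GFP-high libraries were above GFP-negative ones without overlap in each of these parts. The difference was 0.69 ± 0.15 (adjusted p = 7.54e-05) in the proximal, 0.51 ± 0.15 (adjusted p = 0.00281) in the middle and 0.90 ± 0.15 (adjusted p = 6.95e-07) in the distal part. In the colon GFP-high cells did not have more Klf9. The proximal colon had 73.2, 68.8, 44.6 and 58.4 CPM in GFP-high libraries, against 77.4, 81.4, 46.9 and 70.6 CPM in GFP-negative ones. The distal colon had 93.7, 74.4, 76.5 and 85.04 CPM in GFP-high libraries, against 128, 96.4, 105 and 124 CPM in GFP-negative ones. The difference was not called in the proximal colon (-0.17 ± 0.14, adjusted p = 0.426), where the fractions overlapped. It was called in the distal colon (-0.46 ± 0.14, adjusted p = 0.0147), where the fractions did not overlap but the call was lost without GFP-high replicates 2 or 3, GFP-negative replicate 1 or all libraries numbered 1, 2, 3 or 4 (-0.48 to -0.40, adjusted p from 0.0502 to 0.0744).

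Klf10, the other TGF-beta inducible early gene, was lower in GFP-high cells of the middle (-0.74 ± 0.24, adjusted p = 0.00821) and distal small intestine (-0.75 ± 0.24, adjusted p = 0.00681). It stood at 29.2, 27.8, 31.9 and 20.6 CPM in GFP-high libraries, against 45.6, 51.3, 45.5 and 41.00 CPM in GFP-negative ones in the middle part. The distal part had 15.8, 38.6, 29.9 and 38.2 CPM in GFP-high libraries, against 39.9, 63.4, 57.04 and 46.4 CPM in GFP-negative ones. The fractions did not overlap in either part. The call in the middle part was lost without all libraries numbered 2 (-0.69, adjusted p = 0.0525), and that in the distal part without GFP-high replicate 1 (-0.54, adjusted p = 0.0601). In the proximal small intestine the difference of -0.50 ± 0.24 (adjusted p = 0.0805) was not called, but it was with DESeq2 size factors (-0.61, adjusted p = 0.0281). In the colon the differences of -0.46 ± 0.24 (adjusted p = 0.162) and -0.32 ± 0.24 (adjusted p = 0.349) were not called. Klf13 ranged over 63.4 to 143 CPM in all 60 libraries. It was higher in GFP-high cells of the proximal small intestine, by 0.39 ± 0.16 (adjusted p = 0.0411). It was not called without GFP-high replicates 1 or 2, GFP-negative replicates 1, 3 or 4 or all libraries numbered 1, 2, 3 or 4 (0.29 to 0.47, adjusted p from 0.0534 to 0.168), with DESeq2 size factors (0.28, adjusted p = 0.125) or with low counts left unfiltered (0.39, adjusted p = 0.072). Its differences of -0.33 ± 0.16 (adjusted p = 0.127) and -0.39 ± 0.16 (adjusted p = 0.0692) in the colon were not called. In the proximal part it was called without GFP-negative replicate 4 or all libraries numbered 4 (-0.50 to -0.46, adjusted p from 0.00658 to 0.0299), and in the distal part without GFP-high replicate 4, GFP-negative replicate 4 or all libraries numbered 4 (-0.70 to -0.54, adjusted p from 0.000339 to 0.0144).

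The corepressors themselves were mostly higher where they were called. Of 15 corepressor genes, 6, 7, 8, 5 and 6 were higher and 2, 3, 2, 2 and 0 lower in GFP-high cells from the proximal small intestine to the distal colon, with list medians of 0.16, 0.23, 0.36, 0.15 and 0.28. Over all genes, 22.5%, 22.7%, 25.7%, 11.3% and 11.2% were called higher and 24.6%, 25.6%, 26.2%, 14% and 13.9% lower. The genes named from this list and the next were picked by their p-values in these same comparisons. Sin3a, the scaffold of the complex, had log2 differences of 0.72, 1.00, 1.10, 0.52 and 0.56, and the histone deacetylase gene Hdac2 had 0.83, 1.26, 1.43, 0.59 and 0.69, each called higher in all 5 parts. The proximal colon call of Sin3a was lost when the libraries numbered 3 were left out (0.47, adjusted p = 0.0845) and with only its 2 groups in the fit (0.54, adjusted p = 0.0504). Of 14 genes of the TGF-beta response, 4, 5, 6, 2 and 3 were higher and 4, 5, 5, 5 and 3 lower, with medians of 0.05, 0.20, 0.12, -0.09 and -0.12, so the list did not move one way. Smad7, an inhibitor that the pathway induces, was called lower in all 5 parts (-1.38, -2.31, -2.46, -1.43 and -1.44), whereas Tgif1, a repressor of it, was called higher in all 5 (1.80, 2.04, 2.33, 0.86 and 0.80).

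Klf3 and Klf15 stood at opposite ends of abundance. Klf3, the CtBP-dependent repressor, was at 134 to 417 CPM over the 60 libraries and was not called in any of the 5 parts (-0.19, -0.15, -0.11, -0.05 and -0.25 in the order of the gut), except that it was lower in the proximal small intestine without GFP-negative replicate 1 (-0.36, adjusted p = 0.0232). Over the small intestine it was lowest in GFP-intermediate cells: GFP-high exceeded GFP-intermediate by 0.28 ± 0.08 (adjusted p = 0.00938), and GFP-intermediate minus GFP-negative was -0.43 ± 0.08 (adjusted p = 1.01e-05). The first of these calls was lost without all libraries numbered 2 or 3 (0.23 to 0.29, adjusted p from 0.0647 to 0.138). Klf15, a factor of amino acid and glucose metabolism that responds to glucocorticoids, reached at most 4.76 CPM. In the proximal small intestine it stood at 2.81, 2.37, 2.22 and 1.40 CPM in GFP-high libraries, against 0.659, 1.37, 0.644 and 0.469 CPM in GFP-negative ones. The distal small intestine had 1.41, 2.60, 2.06 and 2.85 CPM in GFP-high libraries, against 0.913, 0.598, 0.115 and 0 CPM in GFP-negative ones. GFP-high libraries lay above GFP-negative ones in both parts, by 1.49 ± 0.50 (adjusted p = 0.0117) and 2.45 ± 0.52 (adjusted p = 7.36e-05). The call in the proximal part was lost without all libraries numbered 1 or 3 (1.30 to 1.42, adjusted p from 0.0623 to 0.0712). That in the distal part was lost with only its 2 groups in the fit (2.40, adjusted p = 0.0616). Its size was 3.23 without GFP-negative replicate 1 and 3.40 without the libraries numbered 1. In the middle small intestine, 1.02 ± 0.49 (adjusted p = 0.081) was not called. It was called without GFP-high replicate 4 (1.23, adjusted p = 0.0459) and with only its 2 groups in the fit (1.07, adjusted p = 0.0338). With edgeR's newer quasi-likelihood method it was called too (0.98, adjusted p = 0.0288). In the colon Klf15 was not called between these fractions. The distal colon had 3.14 ± 1.31 CPM in GFP-high and 1.78 ± 0.174 CPM in GFP-negative cells, without overlap of libraries. The proximal colon had 2.85 ± 0.924 against 2.05 ± 0.629 CPM, with overlap (SD, n = 4). Klf9 and Klf15 respond to glucocorticoids and are under the circadian clock. A list of 13 other genes linked to the glucocorticoid response holds Cdkn1a, Tsc22d3 and Hsd11b2 among others. Of these 13 genes, 5, 6, 5, 6 and 4 were lower and 1, 0, 0, 0 and 1 higher in GFP-high cells from the proximal small intestine to the distal colon, with list medians of -0.57, -0.87, -0.51, -0.38 and -0.42. Tsc22d3, a glucocorticoid-induced leucine zipper gene picked by its p-values in these comparisons, was called lower in all 5 parts (-0.99, -0.97, -0.51, -0.38 and -0.51). Its call in the proximal colon was lost without GFP-high replicates 2, 3 or 4, GFP-negative replicates 1, 3 or 4 or all libraries numbered 1, 2, 3 or 4 (-0.41 to -0.29, adjusted p from 0.0652 to 0.217), with low counts left unfiltered (-0.38, adjusted p = 0.0753) and with only its 2 groups in the fit (-0.36, adjusted p = 0.183). That in the distal colon was lost without all libraries numbered 3 (-0.44, adjusted p = 0.0785). Of 16 clock genes, 6, 5, 6, 2 and 2 were lower and 1, 1, 1, 0 and 2 higher, with medians of -0.42, -0.66, -0.24, -0.31 and -0.28. The relation of these lists to the Klf9 and Klf15 differences was not tested.

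In the small intestine more members were called between GFP-intermediate and GFP-negative cells than between GFP-high and GFP-intermediate cells, as was the case for all genes. Over the small intestine 3 of 10 genes were called between GFP-high and GFP-intermediate cells, against 23.9% of all genes, and 9 between GFP-intermediate and GFP-negative cells, against 59.9% of all genes. Against GFP-intermediate cells, GFP-high cells had more Klf3 and less Klf4 and Klf5 (-0.22 ± 0.07, adjusted p = 0.015); the Klf5 call was lost without all libraries numbered 1 or 4 (-0.21 to -0.20, adjusted p from 0.0652 to 0.151). Klf10, Klf11 and Klf13 were just outside, at -0.35 ± 0.14 (adjusted p = 0.0606), 0.34 ± 0.15 (adjusted p = 0.08) and -0.24 ± 0.09 (adjusted p = 0.0523). With the replicate number as a block these 3 were called as well (adjusted p = 0.0441, 0.0381 and 0.0445), which makes 6 calls. Leaving out libraries also gave these calls. Klf10 was called without distal small intestine GFP-high replicates 2 or 4, distal small intestine GFP-intermediate replicate 1, middle small intestine GFP-intermediate replicate 4 or proximal small intestine GFP-high replicate 2 (-0.41 to -0.38, adjusted p from 0.0206 to 0.0495). Klf11 was called without distal small intestine GFP-intermediate replicates 3 or 4 (0.40 to 0.41, adjusted p from 0.0382 to 0.0452). Klf13 was called without distal small intestine GFP-high replicates 2 or 4, middle small intestine GFP-high replicate 4, middle small intestine GFP-intermediate replicate 1 or all libraries numbered 4 (-0.27 to -0.25, adjusted p from 0.0156 to 0.0486). Between GFP-intermediate and GFP-negative cells, Klf11 (1.19 ± 0.15, adjusted p = 8.16e-10), Klf9 (0.54 ± 0.08, adjusted p = 1.8e-07), Klf15 (1.58 ± 0.29, adjusted p = 4.6e-06) and Klf13 (0.37 ± 0.09, adjusted p = 0.000602) were higher and Klf2 (-2.59 ± 0.33, adjusted p = 1.68e-09), Klf4, Klf6, Klf3 and Klf10 were lower. The Klf10 call (-0.32 ± 0.14, adjusted p = 0.0404) was lost without distal small intestine GFP-intermediate replicate 1, distal small intestine GFP-negative replicates 2 or 3, middle small intestine GFP-intermediate replicate 4, middle small intestine GFP-negative replicate 2, proximal small intestine GFP-intermediate replicates 3 or 4, proximal small intestine GFP-negative replicates 1 or 3 or all libraries numbered 1, 2, 3 or 4 (-0.36 to -0.25, adjusted p from 0.0559 to 0.183).

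Between GFP-high and GFP-intermediate cells of the colon 12% of all genes were called, and 40.1% of those calls were higher in GFP-high cells. Of the members 3 were called, all lower in GFP-high cells. They were Klf4, Klf6 and Klf13, the last with -0.42 ± 0.11 (adjusted p = 0.015) and not called without all libraries numbered 1, 2 or 3 (-0.40 to -0.36, adjusted p from 0.0898 to 0.219); without the libraries numbered 3, none of the 3 remained called. Between GFP-intermediate and GFP-negative cells 3 were lower, Klf4, Klf6 and Klf2 (-1.37 ± 0.39, adjusted p = 0.00608), against 23% of all genes.

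Between colon and small intestine, every call of a member was higher in the colon, and the number called differed by fraction. In GFP-high cells 5 of 10 genes were called, against 42.2% of all genes called and 20.9% called higher. The number called there thus stood only a little above the share over all genes. In GFP-intermediate cells it was 7, against 44.1% and 22.1%, and in GFP-negative cells 9, against 50.5% and 28.1%. The median log2 difference of the 10 genes was 0.32, 0.51 and 0.69 in these fractions, against -0.04, -0.01 and 0.05 over all genes tested. Klf4 was higher in the colon by 1.46 ± 0.16 (adjusted p = 3.96e-11) in GFP-high, 1.80 ± 0.16 (adjusted p = 5.21e-14) in GFP-intermediate and 1.06 ± 0.16 (adjusted p = 1.06e-07) in GFP-negative cells. The Klf10 differences were 0.76 ± 0.15 (adjusted p = 3.81e-05), 0.73 ± 0.15 (adjusted p = 7.27e-05) and 0.49 ± 0.15 (adjusted p = 0.00618) in the same order of fractions. The last was not called without all libraries numbered 1 or 3 (0.33 to 0.38, adjusted p from 0.0574 to 0.147). For Klf2 the differences were 2.12 ± 0.36 (adjusted p = 1.8e-06), 2.13 ± 0.35 (adjusted p = 1.1e-06) and 0.90 ± 0.34 (adjusted p = 0.0235). The last was not called without distal colon GFP-negative replicate 2, proximal colon GFP-negative replicate 3 or all libraries numbered 2, 3 or 4 (0.62 to 0.90, adjusted p from 0.0552 to 0.163). It was not called either with only GFP-negative libraries in the fit (0.91, adjusted p = 0.0984). In GFP-high and GFP-intermediate cells the leukocyte marker sums were 3.02 to 13.6 CPM in the colon and 16.6 to 61.1 CPM in the small intestine. The part of leukocytes in the Klf2 difference between the organs was not tested. The Klf5 differences were 0.46 ± 0.08 (adjusted p = 1.78e-06), 0.25 ± 0.08 (adjusted p = 0.00712) and 0.20 ± 0.08 (adjusted p = 0.0312); the call in GFP-intermediate cells was lost without all libraries numbered 1 or 2 (0.23 to 0.24, adjusted p from 0.0566 to 0.0631).

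The Klf5 call in GFP-negative cells was lost without distal colon GFP-negative replicate 2, proximal colon GFP-negative replicates 1, 2 or 4, distal small intestine GFP-negative replicate 4, middle small intestine GFP-negative replicate 1, proximal small intestine GFP-negative replicates 1 or 2 or all libraries numbered 1, 2 or 4 (0.11 to 0.20, adjusted p from 0.052 to 0.354). It was also lost with DESeq2 size factors (0.16, adjusted p = 0.0759) and with only GFP-negative libraries in the fit (0.20, adjusted p = 0.182). The Klf3 differences, colon over small intestine, were 0.25 ± 0.09 (adjusted p = 0.02), 0.50 ± 0.09 (adjusted p = 6.08e-06) and 0.26 ± 0.09 (adjusted p = 0.0155) in GFP-high, GFP-intermediate and GFP-negative cells. The GFP-high call was lost without proximal colon GFP-high replicate 1 or all libraries numbered 1, 2 or 3 (0.20 to 0.29, adjusted p from 0.0504 to 0.111). The GFP-negative call was lost without distal colon GFP-negative replicate 4, proximal colon GFP-negative replicate 4 or all libraries numbered 1 or 2 (0.15 to 0.24, adjusted p from 0.0514 to 0.203), and also with only GFP-negative libraries in the fit (0.26, adjusted p = 0.117). Klf6 was called in GFP-intermediate cells only, by 0.72 ± 0.11 (adjusted p = 4.21e-07). Klf9 was called in GFP-intermediate (0.53 ± 0.09, adjusted p = 3.84e-06) and GFP-negative cells (1.21 ± 0.09, adjusted p = 1.47e-16), with 113 ± 14.9 CPM in GFP-negative cells of the distal colon and 41.9 ± 3.56 CPM in those of the middle small intestine (SD, n = 4). In GFP-high cells the Klf9 difference of 0.19 ± 0.09 (adjusted p = 0.101) was not called, but it was without proximal colon GFP-high replicate 3 or all libraries numbered 3 (0.26 to 0.28, adjusted p from 0.0231 to 0.025) and with only GFP-high libraries in the fit (0.23, adjusted p = 0.0223). Klf11 (1.13 ± 0.16, adjusted p = 3.72e-08), Klf13 (0.41 ± 0.10, adjusted p = 0.000763) and Klf15 (1.39 ± 0.31, adjusted p = 0.000174) were called in GFP-negative cells.

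The difference between GFP-high and GFP-negative cells was itself compared between the organs. Here 3 of 10 genes were called, against 32.2% of all genes, all with a lower GFP-high to GFP-negative ratio in the colon (17.7% of all genes were called in that direction). The log2 difference between the ratios, colon minus small intestine, was -1.02 ± 0.13 (adjusted p = 1.33e-08) for Klf9, -1.14 ± 0.23 (adjusted p = 8.54e-05) for Klf11 and -0.49 ± 0.15 (adjusted p = 0.00751) for Klf13. The Klf13 call was lost without all libraries numbered 1 or 2 (-0.42 to -0.40, adjusted p from 0.0709 to 0.103). The excess of Klf9 and Klf11 in the GFP-high cells of the small intestine thus differed from the colon by a test of the difference. For Klf4 (0.40 ± 0.23, adjusted p = 0.191), Klf6 (0.30 ± 0.16, adjusted p = 0.158) and Klf10 (0.28 ± 0.22, adjusted p = 0.374) no difference between the organs was called, with 95% intervals of -0.05 to 0.85, -0.01 to 0.62 and -0.15 to 0.70. Klf6 was called without all libraries numbered 4 (0.49, adjusted p = 0.0476). Klf2, Klf5 and Klf15 lay near the threshold at 1.22 ± 0.50 (adjusted p = 0.0549), 0.27 ± 0.11 (adjusted p = 0.0589) and -1.01 ± 0.44 (adjusted p = 0.0783). The replicate block brought Klf5 (adjusted p = 0.043) and Klf15 (adjusted p = 0.0409) under it, for 5 calls in all. With edgeR's newer quasi-likelihood method Klf15 was under it as well (-0.99, adjusted p = 0.0232). Left-out libraries brought Klf2 under it in 14 fits, Klf5 in 9 and Klf15 in 2, those for Klf15 without distal small intestine GFP-negative replicate 1 or proximal small intestine GFP-negative replicate 2 (-1.27 to -1.14, adjusted p from 0.0179 to 0.0435). Those for Klf2 were without distal colon GFP-high replicate 2, distal colon GFP-negative replicate 2, proximal colon GFP-high replicate 2, proximal colon GFP-negative replicate 3, distal small intestine GFP-high replicate 2, distal small intestine GFP-negative replicates 1 or 2, middle small intestine GFP-high replicate 2, middle small intestine GFP-negative replicates 2 or 4, proximal small intestine GFP-high replicate 1, proximal small intestine GFP-negative replicates 2 or 4 or all libraries numbered 2 (1.27 to 1.97, adjusted p from 0.00862 to 0.0486). Those for Klf5 were without proximal colon GFP-high replicate 3, proximal colon GFP-negative replicates 2 or 4, distal small intestine GFP-high replicate 1, distal small intestine GFP-negative replicate 4, middle small intestine GFP-high replicate 2, middle small intestine GFP-negative replicate 1, proximal small intestine GFP-negative replicate 1 or all libraries numbered 2 (0.28 to 0.41, adjusted p from 0.015 to 0.0479).

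Along each organ fewer members differed, and all that were called were higher distally. Between distal and proximal small intestine 3 genes were called in GFP-high cells, 2 in GFP-intermediate and 2 in GFP-negative cells, against 11.8%, 8.81% and 15.6% of all genes. Of all genes called there, 54.1%, 59.6% and 42.8% were higher distally. With so few members called, their shared direction is not read as a result about the members. Klf6 was higher distally in all 3 fractions. Its differences were 0.69 ± 0.18 (adjusted p = 0.00571) in GFP-high, 0.58 ± 0.18 (adjusted p = 0.0277) in GFP-intermediate and 0.77 ± 0.18 (adjusted p = 0.00123) in GFP-negative cells. Without the libraries numbered 1 none of these 3 was called (0.46, adjusted p = 0.152, 0.34, adjusted p = 0.423 and 0.47, adjusted p = 0.0845). Single libraries also ended the call in GFP-high cells (distal small intestine replicate 1, 0.56, adjusted p = 0.0562) and in GFP-intermediate cells (distal replicate 1, 0.51, adjusted p = 0.112, and proximal replicates 1, 0.45, adjusted p = 0.17, and 3, 0.56, adjusted p = 0.076). The libraries numbered 3 also ended the GFP-intermediate call (0.57, adjusted p = 0.174). The GFP-negative call was also lost with only its 2 groups in the fit (0.81, adjusted p = 0.0602). Klf4 was higher distally in GFP-intermediate (0.95 ± 0.25, adjusted p = 0.00808) and GFP-negative cells (0.94 ± 0.25, adjusted p = 0.00607). The first call was lost without proximal small intestine GFP-intermediate replicate 1 or all libraries numbered 1 or 3 (0.78 to 0.86, adjusted p from 0.0639 to 0.119) and the second without all libraries numbered 1 (0.78, adjusted p = 0.0723). In GFP-high cells Klf5 was higher distally by 0.45 ± 0.12 (adjusted p = 0.0103) and Klf3 by 0.42 ± 0.14 (adjusted p = 0.0437). The Klf5 call was lost without distal small intestine GFP-high replicate 1 or all libraries numbered 1 or 2 (0.37 to 0.46, adjusted p from 0.0528 to 0.211). The Klf3 call was lost without distal small intestine GFP-high replicates 1, 2, 3 or 4, proximal small intestine GFP-high replicates 1, 2, 3 or 4 or all libraries numbered 1, 2 or 3 (0.36 to 0.45, adjusted p from 0.0553 to 0.212).

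Between distal and proximal colon no member was called by edgeR in GFP-high cells (7.8% of all genes were) or in GFP-intermediate cells (7.34%). At an unadjusted p below 0.05 there were 2 and 3, and the DESeq2 Wald test called 1 and 0. The 1 in GFP-high cells was Klf9, at 0.43 ± 0.14 (adjusted p = 0.0577) by edgeR, and it was also called with the replicate block (0.43, adjusted p = 0.041) and without proximal colon GFP-high replicate 1 (0.52, adjusted p = 0.0264). In GFP-negative cells 13.6% of all genes were called, and 47.1% of those calls were higher distally. Of the members 3 were called, all higher distally. They were Klf9 by 0.72 ± 0.15 (adjusted p = 0.000283), Klf5 by 0.44 ± 0.12 (adjusted p = 0.0102) and Klf3 by 0.42 ± 0.14 (adjusted p = 0.0369). For Klf5 this ended without proximal colon GFP-negative replicate 3 or all libraries numbered 1 or 3 (0.25 to 0.46, adjusted p from 0.0545 to 0.23). For Klf3 it ended without distal colon GFP-negative replicates 1 or 4, proximal colon GFP-negative replicates 1, 2 or 3 or all libraries numbered 2, 3 or 4 (0.30 to 0.49, adjusted p from 0.0552 to 0.3). With only the 2 groups in the fit neither was called (0.42, adjusted p = 0.297 and 0.40, adjusted p = 0.178), and Klf3 was not with DESeq2 size factors (0.40, adjusted p = 0.0563) or low counts left unfiltered (0.42, adjusted p = 0.0556). The difference between GFP-high and GFP-negative cells was not called to vary within an organ. By edgeR 0 of 10 genes were called for distal against proximal colon (0.616% of all genes) and 0 for distal against proximal small intestine (3.54%), with 0 and 0 at an unadjusted p below 0.05 and 0 and 0 by DESeq2.

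Of 7 other Klf genes 6 passed the filter on low counts (Klf14 did not), and of 9 Sp genes 5 did. Of the 6 Klf genes tested 0, 1, 2, 0 and 0 were higher and 1, 1, 1, 0 and 0 lower in GFP-high cells from the proximal small intestine to the distal colon, with list medians of -0.05, -0.25, 0.60, -0.15 and 0.03. Klf8, a CtBP-binding repressor like Klf3, was lower in the 3 small intestinal parts (-2.10, -1.34, -1.53, -0.77 and -0.24 in the order of the gut, the colon values not called) at 0.0958 ± 0.061 CPM in GFP-high and 0.414 ± 0.211 CPM in GFP-negative cells of the proximal small intestine (SD, n = 4). The call in the proximal part was lost without all libraries numbered 3 (-1.54, adjusted p = 0.0509). That in the middle part was lost without GFP-high replicates 1 or 4, GFP-negative replicate 2 or all libraries numbered 1 or 4 (-1.17 to -1.01, adjusted p from 0.0613 to 0.181). That in the distal part was lost without GFP-negative replicate 4 or all libraries numbered 4 (-1.13 to -0.88, adjusted p from 0.0524 to 0.178). With only the 2 groups in the fit neither of these was called (-1.30, adjusted p = 0.0895 and -1.57, adjusted p = 0.0928). Of the 5 Sp genes tested 2, 2, 3, 1 and 0 were higher and none lower, with medians of 0.18, 0.31, 0.54, 0.21 and 0.26. Sp5, a target of Wnt signalling, was higher in 4 of 5 parts (1.05, 1.28, 2.84, 1.55 and 1.18, the distal colon not called). Its call in the proximal small intestine was lost without GFP-high replicates 1, 2, 3 or 4, GFP-negative replicates 3 or 4 or all libraries numbered 1, 2, 3 or 4 (0.78 to 1.33, adjusted p from 0.0513 to 0.161). It was also lost with DESeq2 size factors (0.94, adjusted p = 0.0687) and with low counts left unfiltered (1.04, adjusted p = 0.0553). The call in the middle small intestine was lost without GFP-negative replicate 4 or all libraries numbered 4 (0.77 to 0.94, adjusted p from 0.0694 to 0.0855). In the distal colon it was called without GFP-negative replicate 1 or all libraries numbered 1 (2.27 to 2.55, adjusted p from 0.0214 to 0.0215). Its level in the distal small intestine was 23.2 ± 9.46 CPM in GFP-high and 3.23 ± 1.35 CPM in GFP-negative cells, against 0.22 ± 0.152 and 0.099 ± 0.114 CPM in the same fractions of the distal colon.

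Genes with the pattern most like a member were sought by Pearson's r of the 15 group means of log2 CPM, among 11172 other genes that reached 10 CPM in any group. The groups share a scaling and the same fractions and gut parts, so r is a description only. For Klf4 the 3 highest were Osbpl5 (0.979), Slc22a23 (0.977), Cltb (0.977), and for Klf6 Kdm7a (0.966), Mtm1 (0.965), Lhfpl2 (0.965). The highest were Sdf2 (0.978) for Klf2, Dnajc14 (0.980) for Klf10, Hmga2 (0.970) for Klf11, Msi2 (0.966) for Klf9 and Tmem131 (0.962) for Klf3. Klf13 was most like H2aj (0.941), Klf15 like Tfcp2 (0.933) and Klf5 like Arhgap1 (0.907). Among the members themselves, r over the 15 groups was 0.96 between Klf2 and Klf4, 0.94 between Klf4 and Klf10, 0.84 between Klf11 and Klf15 and -0.63 between Klf6 and Klf11.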

How the data were processed

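PolyA RNA of 60 libraries (15 groups of 4) was analysed from 1 table of 55357 genes per library. The authors deposited raw counts per gene and log2 RPKM values computed from them. Reads were aligned with STAR to mm10 and counted with featureCounts of Subread, with edgeR used downstream, per the submitters' processing notes; versions, annotation release and strandedness are not given in the sources used here. Groups and replicate numbers come from the labels. The deposited batch column equals the replicate number in 60 of 60 libraries, so equal numbers share a batch. Over all groups, deviations from the group mean correlated with a mean r of 0.168 over 420 same-numbered pairs (above 0.1 in 58.8%) and -0.052 over 1260 other pairs.

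Here the counts were tested with edgeR 4.0.16 (R 4.3.3): filterByExpr kept 23360 genes, TMM scaled the libraries, and 1 quasi-likelihood fit held all 60 libraries (45 residual degrees of freedom) with no replicate block. Each of 21 contrasts was tested in both directions, with Benjamini-Hochberg adjustment over all 23360 genes and calls below 0.05. SEs are those of log2 differences; levels are TMM-scaled CPM, and their precision is set by counting and by 4 libraries a group. As alternatives, low counts were left unfiltered, and the fit used DESeq2 size factors, the DESeq2 1.42.0 Wald test, edgeR's newer quasi-likelihood method, the replicate block, only the compared groups in the fit, and leaving out each library or all of 1 number (64 fits with the dispersion trend of all libraries). Intervals are at 95%. The procedure was run on simulated counts in which libraries were drawn independently, with no effect shared by equal numbers. That run thus could not test the lack of a replicate block. The members, gene lists and marker lists were chosen with earlier results of these data known. Other family genes are named where called in 3 or more of the 5 comparisons of GFP-high with GFP-negative cells, and list genes from those with the smallest largest p over these 5. Promoter windows are RefSeq's, of GRCm38.p6.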

Additional observations from a re-analysis of the deposited data

Results flagged for a closer look

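Of 150 sets of 4 libraries (10 genes in 15 groups), 10 had a library far from the other 3 by Dixon's test; chance gives about 1 in 20. Klf11 gave 4 of these, all with the library numbered 2 lowest. It was at 13.7 CPM, against 16.9 to 17.2 CPM in the other 3 GFP-intermediate libraries of the proximal small intestine. In GFP-negative cells of the middle small intestine it was at 3.72 CPM, against 6.38 to 6.71 CPM in the other 3. GFP-intermediate cells of the proximal colon had 19.9 CPM, against 22.3 to 22.6 CPM in the other 3, and GFP-high cells of the distal colon 10.8 CPM, against 17.6 to 18.3 CPM in the other 3.

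Klf13 gave 3. GFP-high replicate 1 of the distal small intestine was at 63.4 CPM, against 95.7 to 99.8 CPM in the other 3. GFP-intermediate replicate 3 of the proximal colon was at 111 CPM, against 124 to 125 CPM in the other 3. GFP-intermediate replicate 4 of the distal colon was the highest, at 126 CPM, against 116 to 117 CPM in the other 3. Klf3 stood at 273 CPM, against 229 to 235 CPM in the other 3 in GFP-intermediate replicate 1 of the proximal colon. Klf6 stood at 98.9 CPM, against 66.7 to 70.3 CPM in the other 3 in GFP-high replicate 4 of the middle small intestine, and it remained below all GFP-negative libraries there. Klf15 was lowest in GFP-high replicate 3 of the proximal colon, at 1.48 CPM, against 3.15 to 3.41 CPM in the other 3. Causes were not tested.

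The difference between GFP-high and GFP-negative cells differed between colon and small intestine for Klf11 by -1.14 ± 0.23 (adjusted p = 8.54e-05), for Klf9 by -1.02 ± 0.13 (adjusted p = 1.33e-08) and for Klf13 by -0.49 ± 0.15 (adjusted p = 0.00751) on the log2 scale (edgeR interaction term, colon minus small intestine).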

How the results depend on the processing

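Most calls of members kept their direction and their side of the threshold under the alternatives listed above. DESeq2 size factors moved the median log2 difference of all genes between GFP-high and GFP-negative cells to -0.10, -0.12, -0.13, -0.10 and -0.07 from the proximal small intestine to the distal colon. With TMM these medians were 0, -0.04, -0.01, -0.04 and -0.03. Member differences with DESeq2 size factors are lower by about the gap between the 2 medians of the part. Of the 10 members, 6 were called between GFP-high and GFP-intermediate cells of the small intestine with the replicate block, with only the groups compared and with DESeq2, against 3. With only the groups compared, 5 were called between GFP-intermediate and GFP-negative cells of the colon, 2 (GFP-intermediate) and 1 (GFP-negative) between distal and proximal colon, and 5 (GFP-high) and 1 (GFP-negative) between distal and proximal small intestine. That fit lost Klf2, Klf3 and Klf5 between colon and small intestine in GFP-negative cells and gained Klf11, Klf13 and Klf15 there in GFP-intermediate and Klf9 in GFP-high cells. Between GFP-high and GFP-negative cells it lost Klf5 in the middle and Klf15 in the distal small intestine and gained Klf10 in the proximal and Klf15 in the middle part. DESeq2 gained Klf13 in both colon parts. Between distal and proximal colon 1 GFP-high call was made with the newer quasi-likelihood method, the block and DESeq2. For the difference between organs 5 were called with DESeq2 size factors, 5 with the block and 6 with DESeq2. The block changed no other call. Klf13 in the middle small intestine, near 0, turned to 0.000587 with the block and 0.0377 with only the groups compared.

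With libraries left out in turn, members called ranged over 2 to 5 (small intestine, GFP-high against GFP-intermediate), 0 to 3 and 2 to 3 (colon, GFP-high against GFP-intermediate and GFP-intermediate against GFP-negative) and 2 to 5 (difference between organs). Between distal and proximal colon they ranged over 0 to 1 in GFP-high and 1 to 3 in GFP-negative cells, and between distal and proximal small intestine over 0 to 3, 0 to 2 and 2 to 3 in GFP-high, GFP-intermediate and GFP-negative cells. Between colon and small intestine in GFP-negative cells the range was 6 to 9, and between GFP-high and GFP-negative cells 5 to 8 in the proximal small intestine and 2 to 4 in the proximal colon. Uncalled differences near 0 changed sign: between GFP-high and GFP-negative cells Klf13 ranged over -0.19 to 0.13 in the middle and -0.17 to 0.12 in the distal small intestine, Klf3 over -0.17 to 0.0347 in the distal small intestine and -0.12 to 0.0746 in the proximal colon, Klf5 over -0.0942 to 0.0317 in the distal small intestine and -0.0692 to 0.0199 in the distal colon, and Klf9 over -0.28 to 0.00491 in the proximal colon. Klf6 between GFP-high and GFP-intermediate cells of the small intestine ranged over -0.0868 to 0.0206. The cause of these changes was not tested. Of 150 group levels, 8 moved by more than 1 SD with CPM from total counts and 2 with DESeq2 size factors. Klf2 and Klf15 have the lowest counts and the widest errors.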

Other observations

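Klf12 is a CtBP-binding repressor outside the 10 members and was chosen after its values were seen. In each fraction it was higher in distal than in proximal small intestine and higher in colon than in small intestine. Along the small intestine GFP-high cells averaged 0.496 ± 0.234 (proximal), 1.43 ± 0.488 (middle) and 14.4 ± 3.35 CPM (distal), and along the colon 25.03 ± 2.96 (proximal) and 43.3 ± 4.88 CPM (distal), with SD and n = 4. The log2 difference of distal over proximal small intestine was 4.86 ± 0.44 (adjusted p = 4.88e-12) in GFP-high, 3.86 ± 0.42 (adjusted p = 6.6e-10) in GFP-intermediate and 3.03 ± 0.41 (adjusted p = 9.26e-08) in GFP-negative cells by edgeR. The GFP-negative value was 3.95 without proximal small intestine GFP-negative replicate 4 and 3.63 without all libraries numbered 4. Colon over small intestine gave 3.93 ± 0.25 (adjusted p = 1.89e-19), 3.69 ± 0.25 (adjusted p = 1.47e-18) and 3.73 ± 0.25 (adjusted p = 5.67e-19) in the same order of fractions. Between GFP-high and GFP-negative cells it was called in 1 of 5 parts, where it was higher in GFP-high cells.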
